A study of Mus musculus with 8 samples.

Results

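The activating transcription factor ATF4 and 9 genes around it make up the amino acid stress response studied here. The 10 members were taken by name: Atf4, Atf3, Ddit3, Ddit4, Asns, Trib3, Chac1, Sesn2, Psat1 and Eif2ak4, and all 10 were found among 21887 protein-coding genes of the RefSeq annotation. Each member was followed across its locus, which is the gene with 50 kb on each side, in peak lists of 2 histone marks, acetylation of histone H3 at lysine 27 (H3K27ac) and at lysine 9 (H3K9ac). A peak is a stretch of the genome where the authors' peak caller found the mark above background. The mice were 9-week-old C57BL/6J males, and the tissue was crypts of the small intestine, the epithelial pockets that hold the stem and progenitor cells, released with EDTA and broken up into single cells with trypsin. They were either fed (Fed) or kept without food for 24 h (Fast), and in each feeding state either received no tetracycline or received the antibiotic for 21 days. The study asked how fasting acts on crypt chromatin through gut microbes and their metabolites. The marks were mapped by CUT&Tag, where antibodies bound to a mark bring in a transposase that cuts and tags the DNA around it.

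Every combination of mark, feeding and tetracycline had 2 peak lists, so each mark had 4 Fed and 4 Fast lists. The labels do not say whether the 2 lists of a group came from different mice. The p-values therefore measure only the spread between lists, which may be technical, and would be too small if the lists repeat 1 sample. Sequencing depth is unknown, and the lists differed in size, from 32392 to 68545 peaks for H3K27ac and from 17249 to 99050 for H3K9ac. Fast lists held on average 1.32 times as many H3K27ac peaks as Fed lists and covered 1.20 times as much of the genome, with overlapping groups (exact permutation test of covered length, two-sided p = 0.33). For H3K9ac the ratios were 1.94 and 1.33, also with overlapping groups. The epithelial origin showed in the marks: all 10 epithelial marker genes, such as Epcam, Cdh1, Vil1 and Cdx2, had an H3K27ac peak within 1 kb of a gene end in all 8 lists. Of 10 immune markers, 2 to 5 were marked in Fed and 5 to 6 in Fast H3K27ac lists, with Cd79a marked in all 8 lists and Csf1r in none. In H3K9ac lists the immune counts were 1 to 3 in Fed and 2 to 4 in Fast. Of 10 stromal, endothelial and muscle markers, 0 to 2 had H3K27ac in either feeding state, and 7, among them Col1a1, Pdgfra and Pecam1, had it in none. For H3K9ac these counts were 0 to 2 in Fed and 0 to 4 in Fast, and 5 markers had it in none. Of 10 markers of other organs, 1 to 2 had H3K27ac in either feeding state, with Apoa2 marked in all 8 lists. Their H3K9ac counts were 2 to 4 in Fed and 2 to 5 in Fast, with Sftpc marked in all 8 lists.

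Cells that run short of amino acids accumulate uncharged transfer RNA, which activates the kinase GCN2, the product of Eif2ak4. GCN2 phosphorylates the initiation factor eIF2, general translation slows, and the messenger RNA of Atf4 is translated more. ATF4 pairs with C/EBP proteins, binds composite elements in its target genes and raises enzymes that make amino acids, as well as brakes on growth and, in lasting stress, factors linked to cell death. H3K27ac marks active promoters and enhancers, and H3K9ac lies mainly at active promoters. In crypts these pathways are of interest because fasting alters nutrient supply, mTORC1 activity and the regenerative behaviour of stem cells.

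The sequences just upstream of the members' starts are shown because they hold, or lack, the element through which ATF4 is known to act, and because the peaks described next lie over them. RefSeq promoter windows (GRCm38.p6) were found for 10 of 10 members, and the 250 bases before the start were searched on both strands. The searched letters were TGATGNAA and TGANGCAA, which are cores of the C/EBP-ATF response element and can both match the same 8 bases, then TGGTGCAA, a related core that was added after the sequences had been seen, and TNACGTCA, a site of the ATF and CREB family. Of 21263 such windows of 17492 genes, 3.18% held TGATGNAA, 2.98% held TGANGCAA, 0.499% held TGGTGCAA and 2.95% held TNACGTCA. At least 1 match stood in 5 of the 10 members, of which Trib3 and Psat1 matched only the later added TGGTGCAA. The share of all windows with a match to any of these letters was not computed. The 5 windows are printed 5′ to 3′ in the direction of transcription with the matches in capitals, followed by Ddit4, whose window held none.
Asns: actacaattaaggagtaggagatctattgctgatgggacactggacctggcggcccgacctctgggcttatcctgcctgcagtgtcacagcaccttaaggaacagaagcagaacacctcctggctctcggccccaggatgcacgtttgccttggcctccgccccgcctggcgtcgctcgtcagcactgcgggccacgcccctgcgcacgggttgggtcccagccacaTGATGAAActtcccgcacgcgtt
Atf3: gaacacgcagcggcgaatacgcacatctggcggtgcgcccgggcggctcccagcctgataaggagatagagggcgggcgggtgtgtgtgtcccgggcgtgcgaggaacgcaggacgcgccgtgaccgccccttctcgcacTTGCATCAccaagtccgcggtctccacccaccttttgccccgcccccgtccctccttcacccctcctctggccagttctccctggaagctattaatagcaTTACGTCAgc
Chac1: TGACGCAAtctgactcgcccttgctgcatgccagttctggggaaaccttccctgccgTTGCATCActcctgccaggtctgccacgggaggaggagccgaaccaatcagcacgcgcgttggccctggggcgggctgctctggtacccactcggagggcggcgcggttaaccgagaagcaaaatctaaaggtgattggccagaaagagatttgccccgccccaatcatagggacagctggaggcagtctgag
Trib3: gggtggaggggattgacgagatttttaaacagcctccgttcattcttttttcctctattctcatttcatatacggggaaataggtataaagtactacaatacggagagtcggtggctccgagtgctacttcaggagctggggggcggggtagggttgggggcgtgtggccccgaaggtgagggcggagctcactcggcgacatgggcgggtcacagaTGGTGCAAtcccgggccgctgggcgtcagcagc
Psat1: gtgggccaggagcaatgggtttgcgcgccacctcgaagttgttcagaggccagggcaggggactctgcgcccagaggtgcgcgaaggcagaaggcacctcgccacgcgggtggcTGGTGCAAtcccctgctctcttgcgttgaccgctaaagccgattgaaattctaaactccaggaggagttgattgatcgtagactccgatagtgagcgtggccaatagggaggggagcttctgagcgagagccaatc
Ddit4: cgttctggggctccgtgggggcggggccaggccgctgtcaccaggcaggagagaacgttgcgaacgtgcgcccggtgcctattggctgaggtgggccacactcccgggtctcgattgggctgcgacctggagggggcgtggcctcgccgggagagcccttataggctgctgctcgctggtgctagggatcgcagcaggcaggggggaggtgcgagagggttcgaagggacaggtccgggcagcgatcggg

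The Asns window lies at chr6:7693210-7693459 on the minus strand, and its match TGATGAAA stands 23 to 16 bases upstream of the start. The Atf3 window (chr1:191183334-191183583, minus strand) holds the reverse-strand core 110 to 103 bases upstream and a site of the ATF and CREB family 10 to 3 bases upstream. In the Chac1 window (chr2:119350992-119351241, plus strand) 1 core starts 250 bases and another 193 bases upstream. Trib3 (chr2:152344061-152344310, minus strand) has TGGTGCAA 33 to 26 bases upstream, and Psat1 (chr19:15925060-15925309, minus strand) has it 136 to 129 bases upstream. The Ddit4 window lies at chr10:59951771-59952020 on the minus strand. No match was found in the windows of Atf4, Ddit3, Ddit4, Sesn2 and Eif2ak4, which says only that these letters are not in these 250 bases. The Asns match lay under an H3K27ac peak in 8 of 8 lists and under an H3K9ac peak in 7. The Atf3 core was covered in 8 and 6 lists and the Trib3 match in 7 and 7. The Chac1 core nearer to the start was covered in 4 and 2 lists, and the Psat1 match in 1 and 4.

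Most members carried both marks at a gene end, which is the start or the other end of the gene with 1 kb on either side. For H3K27ac, 7 of the 10 members were marked in all 8 lists, where 33.6% of all protein-coding genes were, and no member was unmarked throughout, where 39.4% of genes were. For H3K9ac, 3 members, Ddit3, Trib3 and Sesn2, were marked in all 8 lists, where 21.1% of genes were, and again no member was unmarked throughout (25.2% of genes). The sensor kinase gene Eif2ak4 and the transcription factor genes Atf4 and Atf3 had a gene-end H3K27ac peak in 8 lists each and an H3K9ac peak in 7. Ddit3, which encodes the factor CHOP, was marked in 8 and 8. The asparagine synthetase gene Asns was marked in 8 and 7. Psat1, whose enzyme catalyses a step of serine synthesis, was marked in 2 H3K27ac and 4 H3K9ac lists. Trib3, which encodes a pseudokinase that ATF4 induces, was marked in 8 and 8, and Chac1, whose enzyme breaks down glutathione, in 5 and 4. Among the brakes on mTORC1, Ddit4 was marked in 8 and 7 lists and Sesn2, whose protein binds leucine, in 7 and 8. Feeding did not divide these lists: no member had a gene-end peak in every Fast list but no Fed list (0.0959% of genes for H3K27ac and 0.0777% for H3K9ac), nor the reverse (0.0137% and 0.0411%).

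The peaks over the gene starts fell into wide and narrow ones. The H3K27ac peak over the Ddit3 start was 3487 to 6097 bp wide, with a median of 5371 bp, the Ddit4 peak 2404 to 5963 bp and the Atf4 peak 2519 to 6803 bp. The Eif2ak4 peak measured 712 to 1080 bp and the Asns peak 819 to 1564 bp. Ddit3 shares its start with Mbd6, which runs the other way and overlaps it by 76 bp, so the peak there cannot be assigned to 1 of the 2 genes. A single list held 5 of the gaps. The second H3K9ac list of the Fast mice with tetracycline lacked a gene-end peak at Atf4, Atf3, Chac1, Psat1 and Eif2ak4, while 43.1% of all genes were marked in it, against 41.1% to 53.2% over the 8 lists.

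**Figure D1:**
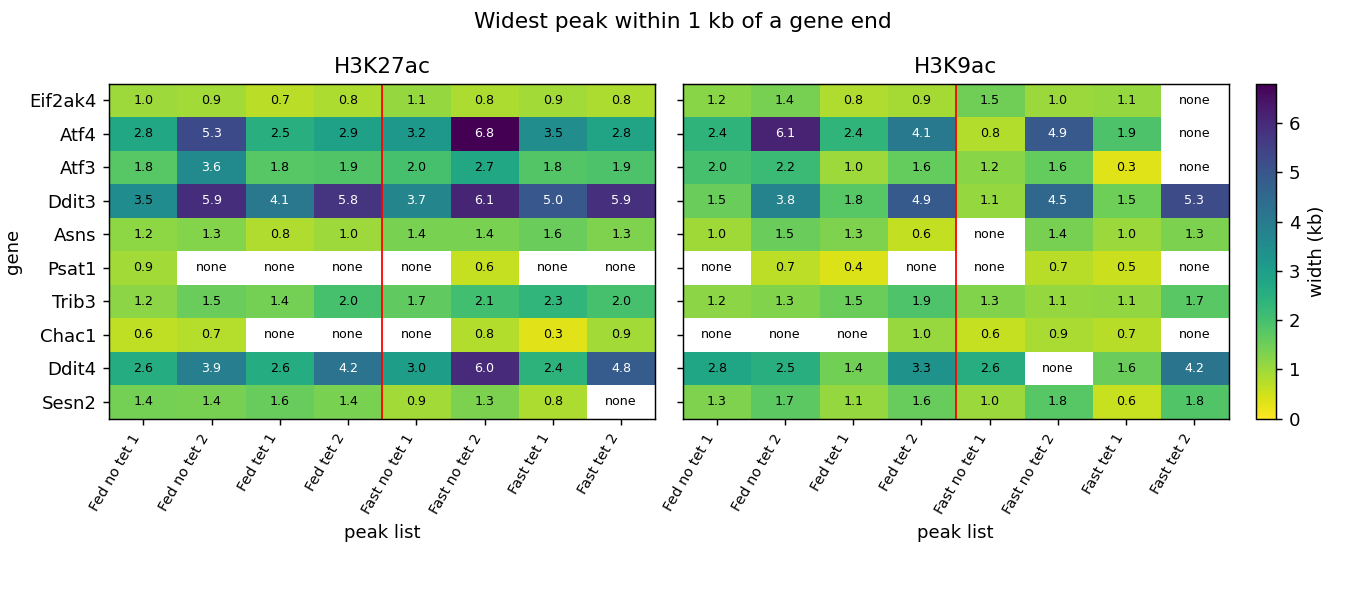
Width in kb of the widest peak within 1 kb of either end of each member (rows) in each peak list (columns), for H3K27ac (left) and H3K9ac (right). Fed lists stand left and Fast lists right of the red line, tet stands for tetracycline, and white cells mark lists with no such peak, which are commonest at Psat1 and Chac1.

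Across the loci, fasting went with more H3K27ac around Ddit4 and Asns and with less H3K9ac around Trib3, while the other member loci overlapped between feeding states. The measure was the length under peaks in the gene and its 50 kb flanks. A locus was called when all 4 Fast lists lay above, or all below, all 4 Fed lists. For H3K27ac, 2 members, Ddit4 and Asns, were called above, where 5.29% of all genes were, and none below (0.128% of genes). For H3K9ac none was called above (3.48% of genes) and 1, Trib3, below (0.251% of genes). Feeding labels exchanged within each tetracycline state give 36 arrangements, so the smallest two-sided p of the exact permutation test is 0.056 and no locus can pass 0.05. That smallest p was reached by 3 members for H3K27ac (Ddit4, Asns and Eif2ak4), where 8.77% of genes reached it, and by 1 for H3K9ac, where 5.81% did. The median difference, Fast minus Fed, was 490 bp over the members and 431 bp over all genes for H3K27ac. Covered length was higher in the Fast mean at 7 of the 10 members, against 73.6% of all genes. For H3K9ac, 6 members were higher, against 74.0% of all genes. The median shift of the members was thus close to that of genes at large, while Ddit4 stood far from the other 9.

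List size moved with several of these results. Among the first lists of each group, Fast lists were the larger ones for H3K27ac (56717 to 68545 peaks against 32392 to 36340) and for H3K9ac (97764 to 99050 against 17249 to 24643). There the 2 Fast lists lay above the 2 Fed lists at 5 members for H3K27ac, against 53.0% of all genes, and at 9 for H3K9ac, against 70.4%. Among the second lists, the Fast lists held 36737 to 55415 H3K27ac peaks against 47565 to 48242, and 35889 to 53313 H3K9ac peaks against 51552 to 54158. There 3 members lay above for H3K27ac (Ddit4, Asns and Eif2ak4), against 12.05% of genes, and none below, against 10.52%. For H3K9ac 1 member, Sesn2, lay above and 5 lay below, namely Atf4, Atf3, Ddit3, Trib3 and Chac1, against 6.36% and 36.6% of genes. The H3K9ac direction of most members thus differed between first and second lists, while Ddit4 and Asns lay above for H3K27ac, and Trib3 below for H3K9ac, among both.

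**Figure D2:**
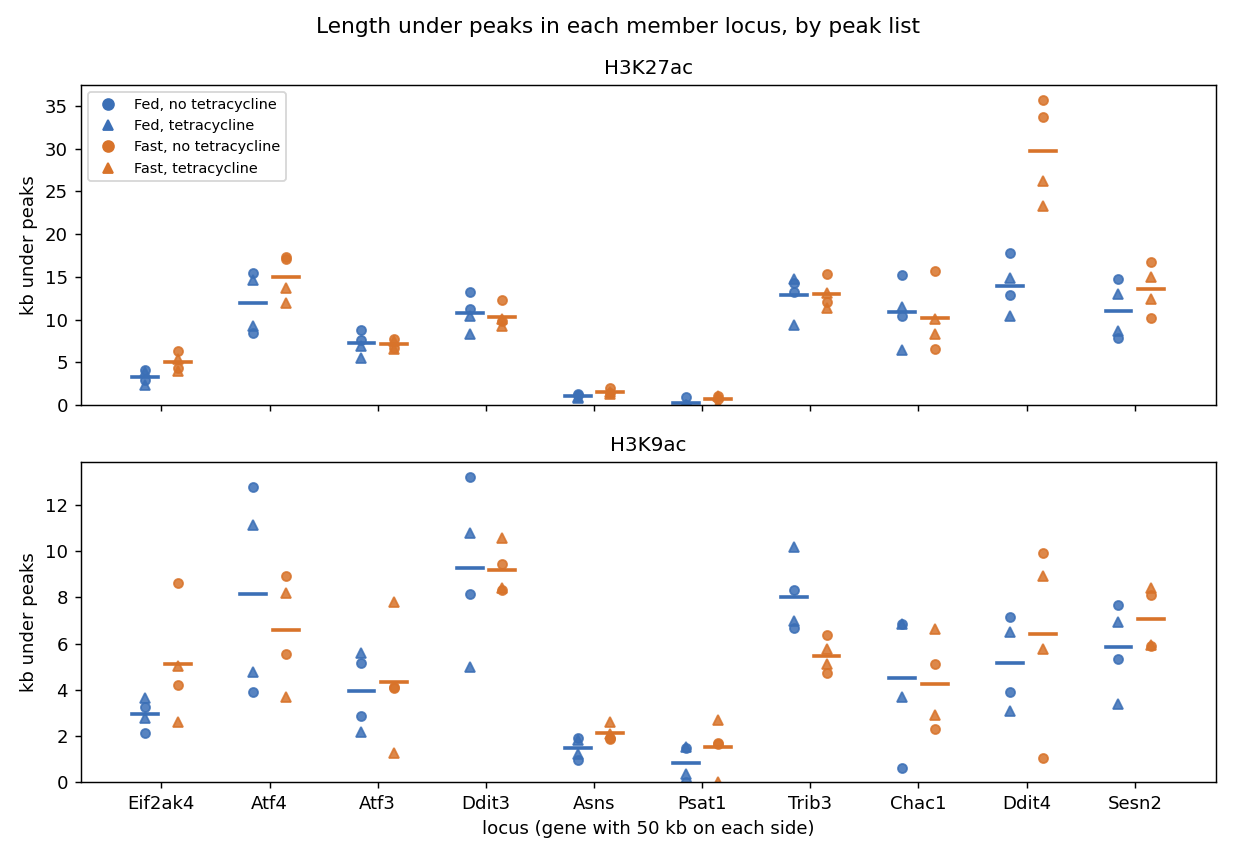
Length under H3K27ac peaks (top) and H3K9ac peaks (bottom) in kb, for each member with 50 kb on either side, with 1 point per peak list (blue Fed, orange Fast, circles without and triangles with tetracycline) and bars at the mean of 4 lists. At Ddit4 the 4 Fast H3K27ac lists lie between 23.3 and 35.7 kb, above the Fed lists at 10.4 to 17.8 kb, and at Trib3 the 4 Fast H3K9ac lists lie below the Fed ones.

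Ddit4 encodes REDD1, an inhibitor of mTORC1 that glucocorticoids, hypoxia and energy shortage are known to induce. Its locus held 12.9 and 17.8 kb under H3K27ac peaks in the 2 Fed lists without tetracycline and 10.4 and 14.8 kb in the 2 with it. The Fast lists held 33.7 and 35.7 kb without tetracycline and 23.3 and 26.2 kb with it. Every Fast list exceeded every Fed list, and within both feeding states the lists with tetracycline had the lower mean. The mean was 14.0 ± 3.10 kb in Fed and 29.7 ± 5.90 kb in Fast (SD, n = 4 lists each), a ratio of 2.13 and a difference of 15.7 kb. The exact permutation p was 0.056 and the Benjamini-Hochberg adjusted p over all 21887 genes 0.63. The difference was 19.3 kb without tetracycline and 12.1 kb with it. Whether this fasting difference depends on tetracycline was not tested.

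Ranked by the difference in length under peaks, the Ddit4 locus came 2 of 21887, after Foxp1 with 18.8 kb, a much longer gene. As a share of its 102 kb locus, the covered part went from 13.7% to 29.1%, which is 15.4 percentage points, rank 1 of 21887. The next loci, around Reg4 and Aqp1, differed by 11.4 and 10.05 points. This ranking was made after the Ddit4 values had been seen. By ratio the locus was less extreme: 6.88% of 17463 genes with a ratio had at least the ratio of Ddit4. The rank by share stayed 1 with the better-scored 0.5 of each list, with equal numbers of top-scoring peaks per list, with covered length taken as a share of the list, and with peaks of at least 500 bp. With the equal numbers, which remove the difference in peak number but not in peak width, the difference was 12.8 kb. With covered length taken as a share of the list, it was 11.6 kb. In crypt preparations a change in the mix of cells and a change within each cell cannot be told apart. Length under H3K27ac peaks was higher in the Fast mean at 10 of 10 epithelial marker loci (median difference 4087 bp), 9 of 10 immune loci (666 bp) and 9 of 10 stromal, endothelial and muscle loci (709.5 bp). It was also higher at 7 of 10 marker loci of other organs (129 bp) and at 73.6% of all genes (431 bp). The part of these cell types in the Ddit4 difference was not tested.

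**Figure D3:**
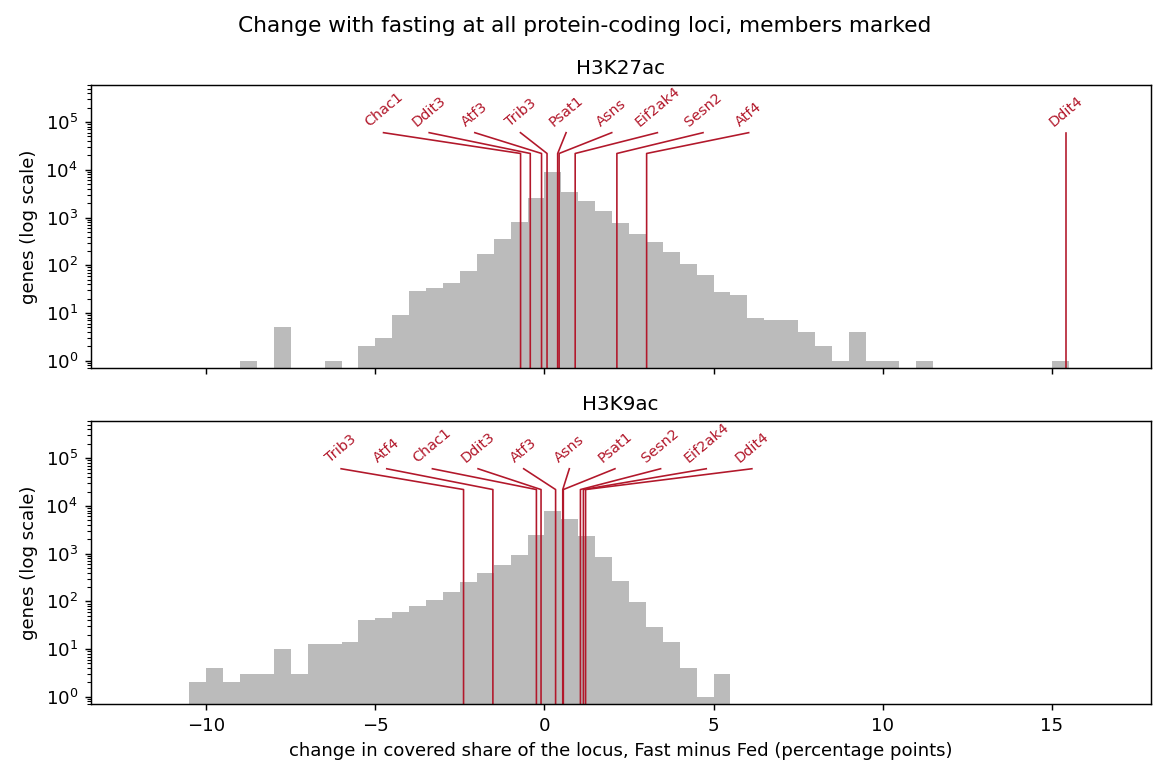
Number of protein-coding genes (log axis) by the change in the covered share of the locus, Fast minus Fed in percentage points, for H3K27ac (top) and H3K9ac (bottom), in bins of 0.5 points. Red lines mark the 10 members, of which Ddit4 lies at 15.4 points for H3K27ac, while for H3K9ac it lies at 1.22 among the other genes.

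Most of the additional H3K27ac at Ddit4 lay in the flanks, on both sides. The gene-end windows were nearly filled in every list and could show little gain, with 3.73 ± 0.179 kb in Fed and 3.90 ± 0.167 kb in Fast (SD, n = 4 lists each). The region over the gene, which reaches beyond these windows, was 3979 ± 154 bp wide in Fed and 5105 ± 944 bp in Fast lists (SD, n = 4 lists each), with overlapping groups (exact permutation p = 0.11). The upstream flank went from 5246 ± 2167 bp in Fed to 13418 ± 2537 bp in Fast, and the downstream flank from 6786 ± 1042 to 14301 ± 3338 bp (SD, n = 4 lists each). In both flanks every Fast list exceeded every Fed list, and over both together 4.85% of genes were called in that direction. The mean number of peaks in the flanks was 9 in Fed and 18.5 in Fast lists. The only other protein-coding gene overlapping the locus, Anapc16, which encodes a subunit of the anaphase-promoting complex, lies 35.6 to 51.4 kb upstream. Outside Anapc16 and 1 kb around it, the covered length was 13626 ± 3180 bp in Fed and 27881 ± 5420 bp in Fast lists (SD, n = 4 lists each), again with no overlap.

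Overlapping peaks of the 8 lists were joined into regions, and 29 H3K27ac regions fell in the Ddit4 locus, of which 5 were present in all 8 lists. Regions at chr10:59924218-59925874, 25.9 to 27.6 kb downstream of the start, and at chr10:59997266-59998261, inside Anapc16, were present in all 4 Fast and no Fed list. The region at chr10:59969511-59971538, 17.7 to 19.8 kb upstream, was present in 4 Fast and 1 Fed list, and that at chr10:59963075-59964369, 11.3 to 12.6 kb upstream, in 3 Fast and no Fed list. Regions already present in Fed lists were also wider. The region 28.7 to 33.7 kb downstream had a mean width of 2342 ± 236 bp in Fed and 3683 ± 539 bp in Fast lists (SD, n = 4 lists each). The region 19.8 to 23.8 kb upstream had 2258 ± 752 and 3600 ± 420 bp (SD, n = 4 lists each). Together with the one at the far end of the upstream flank, which also spans the ends of Anapc16 and Ascc1, 3 of the 5 constant regions were wider in every Fast list than in any Fed list, where 5.04% of 16401 constant regions were. Counting the Asns start, 4 of the 28 constant H3K27ac regions of the 10 loci were wider in this sense and none narrower (0.494%), and of the 4 constant H3K9ac regions none was wider (2.15%) or narrower (1.06%).

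H3K9ac at Ddit4 overlapped between feeding states. The Fed lists held 3.93, 7.16, 3.10 and 6.504 kb and the Fast lists 9.93, 1.04, 5.77 and 8.93 kb under H3K9ac peaks, a difference of 1.24 kb (exact permutation p = 0.78). The difference was -0.980 kb without the first Fast list without tetracycline and 3.46 kb without the second. The flanks alone held 2005 ± 1661 bp in Fed and 4027 ± 2661 bp in Fast lists (SD, n = 4 lists each), higher in Fast in 3 of 4 pairs and also overlapping (exact permutation p = 0.39). The second Fast list without tetracycline had the lowest value and lacked the peak over the gene, which the other 7 lists had. Of the H3K27ac regions that were at least 3 lists more frequent in Fast at this locus, the 2 found in no Fed list but all Fast lists overlapped an H3K9ac peak in 0 lists, and the other 2 in 2 and 3 lists.

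**Figure D4:**
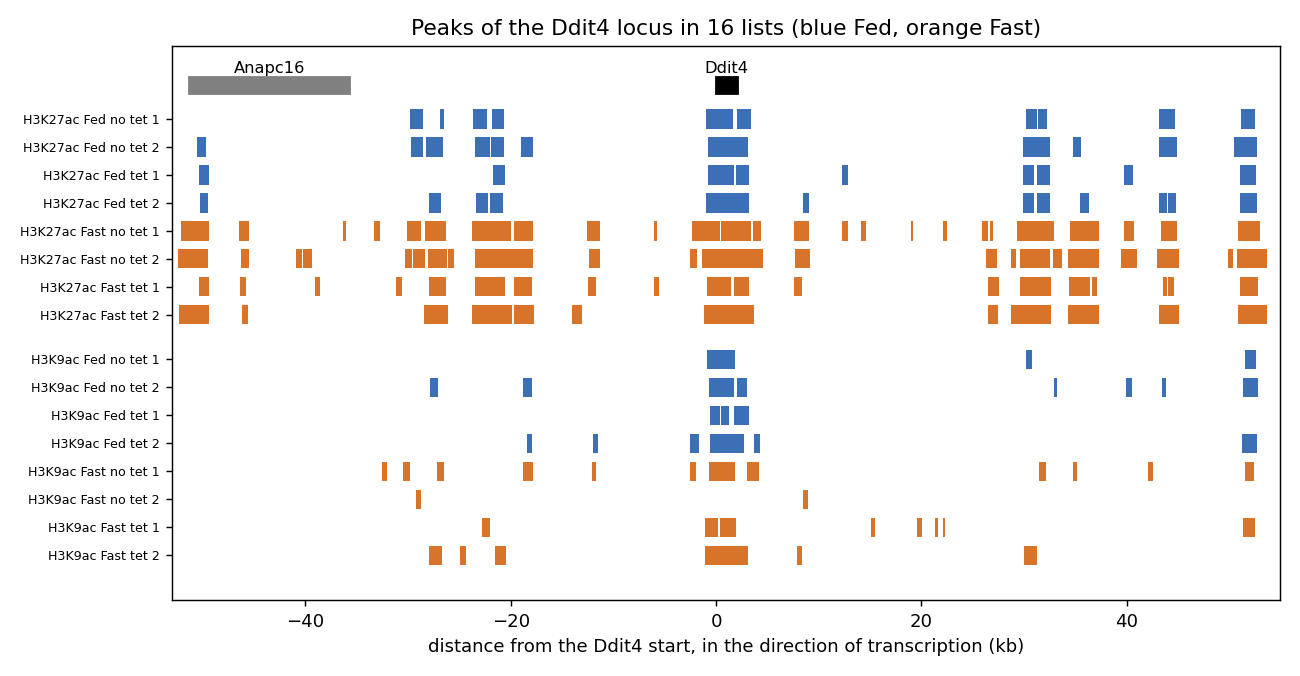
Peaks (boxes, to scale) in the Ddit4 locus in each of the 16 lists, by distance in kb from the Ddit4 start in the direction of transcription, with Ddit4 (black) and Anapc16 (grey) on top. The block over the gene is present in all 8 H3K27ac lists, while the flanks hold 9 peaks on average in Fed (blue) and 18.5 in Fast (orange) lists.

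The asparagine synthetase gene Asns, which converts aspartate to asparagine and is a standard target of ATF4, had no other protein-coding gene in its locus. Its H3K27ac consisted mainly of 1 peak over the start, where the element printed above lies. This peak was 1152 and 1273 bp wide in the Fed lists without tetracycline and 819 and 986 bp in those with it. In the Fast lists it was 1379 and 1380 bp wide without and 1564 and 1326 bp with tetracycline. All 4 Fast values lay above all Fed values, with means of 1412 and 1058 bp (exact permutation p = 0.056). Its gene-end windows were called above, where 2.05% of genes were. Over the whole locus the covered length was 1.06 ± 0.198 kb in Fed and 1.57 ± 0.309 kb in Fast (SD, n = 4 lists each), a ratio of 1.48. In size this difference of 512 bp was ordinary, at rank 10283 of 21887 and near the median of 431 bp over all genes. Scaled to each list's whole covered length, the groups overlapped and the permutation p was 0.28. H3K9ac at Asns was 1.48 ± 0.472 kb in Fed and 2.12 ± 0.351 kb in Fast (SD, n = 4 lists each), with overlapping groups and an exact permutation p of 0.17.

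Eif2ak4, the gene of the amino acid sensor GCN2, had 4.05, 2.95, 3.82 and 2.39 kb under H3K27ac peaks in Fed lists and 6.32, 4.38, 5.37 and 3.94 kb in Fast lists. The lowest Fast list lay just below the highest Fed list, and the Fast list was the higher one in 4 of 4 pairs of equal list number and tetracycline state. The difference of 1.70 kb had an exact permutation p of 0.056. On average it lay in the body and the downstream flank, not at the start, whose peak measured 866 bp on average in Fed and 924 bp in Fast lists. In the body the first Fast lists held 2105 and 2073 bp, and the second held 895 and 721 bp. The Fed lists held 617 to 797 bp there, so the groups overlapped (exact permutation p = 0.17). They also overlapped in the downstream flank (exact permutation p = 0.11). A region at chr2:118401724-118402683 in the gene body was present in 3 Fast and no Fed list. The difference turned to -0.160 kb with the better-scored 0.5 of each list and to -0.403 kb with equal numbers of top-scoring peaks, so it was not seen among the better-scored peaks. H3K9ac differed by 2.15 kb (exact permutation p = 0.22). Its flanks held 1.40 ± 0.391 kb in Fed and 2.76 ± 0.945 kb in Fast lists (SD, n = 4 lists each) without overlap, where 3.4% of genes were called. Over the whole locus the first Fast list without tetracycline held the highest H3K9ac value at 8.62 kb.

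Trib3 showed the opposite direction for H3K9ac. Its locus held 6.70, 8.31, 6.96 and 10.2 kb under H3K9ac peaks in Fed lists and 6.38, 4.72, 5.10 and 5.75 kb in Fast lists. Every Fast list lay below every Fed list, with means of 8.04 ± 1.60 and 5.49 ± 0.734 kb (SD, n = 4 lists each) and an exact permutation p of 0.056. The ratio was 0.683. This locus holds 4 other genes, Tbc1d20, Rbck1, Nrsn2 and Sox12. Outside them and 1 kb around them, 3776 ± 869 bp were covered in Fed and 2336 ± 241 bp in Fast lists (SD, n = 4 lists each). There the groups lay apart, and the share of all genes so called was not computed. Within them and 1 kb around, means were 4262.5 and 3150 bp, with overlapping groups (exact permutation p = 0.39). The background of this call depends on list size: with equal numbers of top-scoring peaks 6.02% of all genes were called below, and scaled to each list's covered length 4.596% were, with Trib3 among them in both. The gene-end windows of Trib3 showed it too, with 2.05 ± 0.331 kb in Fed and 1.24 ± 0.328 kb in Fast lists (SD, n = 4 lists each). The Fast lists did not lack the same peak. The first without tetracycline lacked the peak at the start, and the second had a peak at each end. Those with tetracycline lacked the peak at the other end. Where present, the peak over the start was 930 to 1733 bp wide in Fast and 1175 to 1875 bp in Fed lists, so its width overlapped. At gene ends 1.03% of all genes were called below, and Trib3 was the 1 member among them. With flanks of 10 kb the groups overlapped and the permutation p was 0.11. H3K27ac at Trib3 averaged 12923 bp in Fed and 13005 bp in Fast lists, although a region at chr2:152334421-152335821, 8.24 to 9.64 kb downstream of the start, was present in 4 Fast and 1 Fed list.

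**Figure D5:**
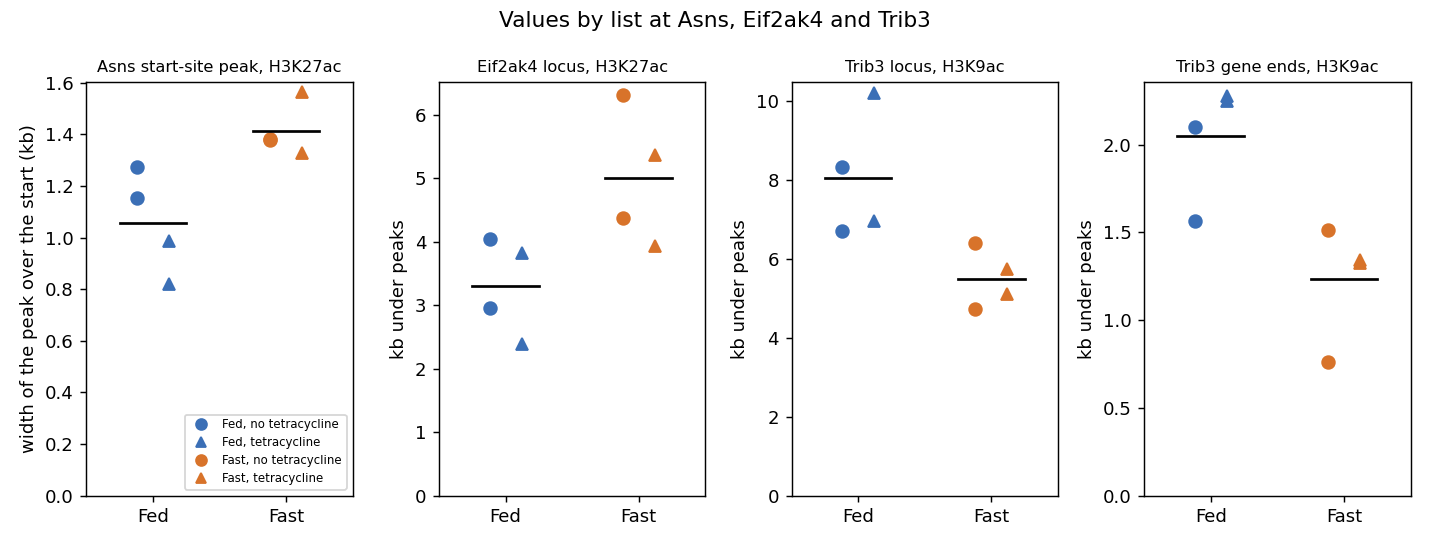
Values by list at 3 further members: width of the H3K27ac peak over the Asns start, length under H3K27ac peaks in the Eif2ak4 locus, and length under H3K9ac peaks in the Trib3 locus and at its gene ends, all in kb. Points are lists (blue Fed, orange Fast, circles without and triangles with tetracycline) and black bars are means of 4 lists. The groups overlap at Eif2ak4 and lie apart in the other 3 panels.

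The transcription factor loci overlapped between feeding states for both marks. Around Atf4, H3K27ac was 8.40, 15.4, 9.28 and 14.7 kb in Fed lists and 17.1, 17.4, 11.99 and 13.7 kb in Fast lists (difference 3.09 kb, exact permutation p = 0.28). Leaving out a single list moved this difference between 1.34 kb (without the first Fed list without tetracycline) and 4.84 kb (without the second). A region at chr15:80224893-80225681, 29.5 to 30.3 kb upstream of the Atf4 start and between Mgat3 and Mief1, was present in all 4 Fast and no Fed H3K27ac list. For H3K9ac, a region at chr15:80249564-80251437 inside Mief1, 3.75 to 5.62 kb upstream of Atf4, was present in 4 Fast and 1 Fed list. Atf3, which encodes a stress-induced repressor and partner of the same family, averaged 7.21 kb H3K27ac in Fed and 7.11 kb in Fast lists, a difference within its spread. Ddit3 averaged 10.8 and 10.4 kb. Its gene body outside the end windows was covered over 387 bp in Fed and 737 bp in Fast lists with no overlap, where 2.71% of genes were called in that direction. The Ddit3 locus holds 6 other genes, among them Mars1, the methionyl-tRNA synthetase gene that lies against its far end.

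Among the effector genes, Psat1 had little of either mark. H3K27ac at its locus was at 0 in 4 of the 8 lists and at most 1.11 kb, and H3K9ac reached at most 2.71 kb. Chac1 averaged 10.9 ± 3.61 kb H3K27ac in Fed and 10.2 ± 3.98 kb in Fast (SD, n = 4 lists each), nearly all of it in the flanks. These hold the Notch ligand gene Dll4, where a region at chr2:119328635-119330503 was present in 4 Fast and 1 Fed list. Sesn2 averaged 11.1 ± 3.34 kb in Fed and 13.6 ± 2.89 kb in Fast (SD, n = 4 lists each), and the groups overlapped. Leaving out a single list moved the Sesn2 difference between 0.799 kb (without the first Fed list without tetracycline) and 4.24 kb (without the second). At its gene ends, however, the Fast lists all lay below the Fed lists. The Fed lists held 1.43, 1.91, 1.74 and 1.38 kb and the Fast lists 0.939, 1.33, 1.24 and 0 kb, where 0.292% of genes were called below. A region at chr4:132553922-132555498, 43.5 to 45.0 kb upstream of Sesn2 and next to the 3′ end of Dnajc8, was present in all 4 Fast and no Fed H3K27ac list. For H3K9ac, a region at chr4:132474468-132475169, 35.3 to 35.99 kb downstream of the start, was present in 4 Fast and 1 Fed list.

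Over all member loci, 157 H3K27ac regions were found, of which 28 were present in all 8 lists (14.6% of regions genome-wide) and 68 in only 1 (53.1%). Of the 157, 4 regions were present in all Fast and no Fed list, where 0.4% of 112301 regions genome-wide were, and none in all Fed and no Fast list (0.0837%). At least 3 more Fast than Fed lists held 9 of the regions (2.11% genome-wide), and none was held by at least 3 more Fed lists (0.71%). Ddit4 contributed 2 of the 4 and 4 of the 9. For H3K9ac, 253 regions were found, with 4 in all 8 lists (1.52% genome-wide) and 184 in only 1 (84.4%). None was present in all Fast and no Fed list (0.0189% genome-wide) or the reverse (0.0145%), and 2 had at least 3 more Fast lists (0.33%).

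Tetracycline went with shorter H3K27ac coverage at the members, without separating the groups at any of them. All 10 member loci had the lower H3K27ac mean with tetracycline, and 66.7% of all genes did. The H3K27ac lists with tetracycline held 32392 and 48242 peaks in Fed and 56717 and 36737 in Fast. Those without it held 36340 and 47565 peaks in Fed and 68545 and 55415 in Fast. The part of list size in the lower means was not tested. No member had all lists with tetracycline below (1.22% of genes) or above (0.128%) those without. The largest difference was at Ddit4, with 25.02 kb without and 18.7 kb with tetracycline (exact permutation p = 0.11), which is less than its difference by feeding. Ddit3 averaged 11.7 kb without and 9.51 kb with tetracycline (exact permutation p = 0.11). Between lists of the same number and feeding state, 5 members (Atf3, Ddit3, Ddit4, Asns and Eif2ak4) were lower with tetracycline in 4 of 4 pairs, where 10.997% of genes were. For H3K9ac 5 members were lower with tetracycline, and none was called in either direction (0.142% of genes below and 0.238% above).

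The wider pathway was read from 59 further genes in 7 lists: eIF2 kinases and their regulators, partner transcription factors, aminoacyl-tRNA synthetases, enzymes of serine, one-carbon and amino acid synthesis, amino acid transporters, secreted factors, and growth control genes with paralogs of the members. Of these, 35 had a gene-end H3K27ac peak in all 8 lists (33.6% of all genes did) and 20 an H3K9ac peak (21.1%). Never marked with H3K27ac at an end were Phgdh and Shmt2 (serine and one-carbon enzymes), Slc7a11 (the cystine transporter), and the secreted factors Fgf21 and Stc2. Stc2 was also the only one never marked with H3K9ac. Fast lists lay above all Fed lists at 5 of the 59 loci for H3K27ac and at 5 for H3K9ac, which is 8.47% each (5.29% and 3.48% of all genes), and below them at 0 for either mark. By list, for H3K27ac these were 1 of 9 transcription factors, 2 of 12 synthetases and 2 of 10 synthesis enzymes, and 0 of the 9 eIF2 genes, 8 transporters, 4 secreted factors and 7 growth control genes. For H3K9ac they were 1 of 9 transcription factors, 2 of 10 synthesis enzymes, 1 of 8 transporters and 1 of 7 growth control genes.

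Phgdh, the first enzyme of the serine pathway that Psat1 continues, had for both marks the largest difference among the loci without overlap. Its locus had 1237 ± 1110 bp under H3K27ac peaks in Fed and 7861 ± 2113 bp in Fast lists (SD, n = 4 lists each), and for H3K9ac 1487 ± 1117 and 4949 ± 1996 bp (SD, n = 4 lists each). The gene itself with 1 kb around it was at 0 for H3K27ac in all 8 lists. Among the same loci Mthfd1l, a mitochondrial one-carbon enzyme, followed for H3K27ac with 4026 ± 954 bp in Fed and 8134 ± 745 bp in Fast (SD, n = 4 lists each), most of it within the gene. For H3K9ac Slc7a11 was next among the loci without overlap, with a mean of 628 bp in Fed and 3027 bp in Fast lists. The remaining loci without overlap, named after their values were seen, were Cebpd, Cars and Gars for H3K27ac and Cebpd, Mthfd1l and Eif4ebp1 for H3K9ac. Jdp2, which encodes a repressor related to ATF3, had a gene-end H3K9ac peak in 4 Fast and 1 Fed list.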

How the data were processed

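CUT&Tag libraries of crypts were made with an Epicypher CUTANA kit, per the labels' protocols. The deposited files are 16 peak lists, each line with a position, a peak name and a score whose unit is not given in the sources used here. The score was used only to rank peaks within a list. The submitters' processing notes name the mm10 build, FastQC, Bowtie and SAMtools, the file names say that reads were downsampled, and the peak names carry the prefix MACS. All scores were at least 50.

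Groups came from the labels and list numbers from the files. Gene positions were RefSeq GRCm38.p6, the assembly behind mm10. Covered length per locus, peaks within 1 kb of a gene end, and regions (peaks of a mark's lists joined where they overlap by at least 1 bp) were computed with Python 3.11.15 and numpy 2.4.6. Feeding was tested by exact two-sided permutation within tetracycline states, with Benjamini-Hochberg adjustment over 21887 genes. The computation was tested on simulated data, where 100% of 200 planted H3K27ac loci among 21887 were recovered. Each planted locus had a wide peak added to every Fast list and to no Fed list. This recovery therefore checks the code only and does not show how well smaller differences are found. The members and lists were chosen with earlier results of these data known. Named were all members, regions at least 3 lists more frequent in a feeding state, and of the 59 pathway genes those unmarked throughout, those marked at an end in 4 lists of a state and at most 1 of the other, and the 2 with the largest difference per mark without overlap. List numbers repeat across groups. The first lists' deviations from their group means correlated over genes at 0.298 to 0.760 (6 pairs, H3K27ac) and at -0.0955 to 0.580 (H3K9ac). All the H3K27ac values were positive, but not all the H3K9ac values. Alone, these values do not show that lists of equal number belong together. Alternatives are given in the closing section.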

Additional observations from a re-analysis of the deposited data

How the results depend on the processing

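Depth is unknown and a group has 2 lists, so an absent peak does not show an absent mark. Other settings were equal numbers of top-scoring peaks, the better-scored 0.5 of each list, and peaks of at least 500 bp (added after the data were seen). Under each of them Ddit4 and Asns stayed above for H3K27ac and Trib3 below for H3K9ac. In that order, 3.495%, 4.31% and 4.17% of all genes were above for H3K27ac, against 5.29% with all peaks. For H3K9ac 6.02%, 0.818% and 0.864% were below, against 0.251% with all peaks, so the Trib3 call was less rare under each. Leaving out any single list did not change the calls of Ddit4, Asns and Trib3. Scaled to the list's covered length, 1 member (Ddit4) was above and 1 (Trib3) below for H3K27ac, where 3.34% and 4.98% of all genes were. With 10 kb flanks, 0 were below for H3K9ac.

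With lists left out singly or by list number, H3K27ac calls above numbered 2 to 5 and H3K9ac calls above 0 to 9 and below 1 to 5. H3K27ac loci with all tetracycline lists below numbered 0 to 5. Without the first Fed list without tetracycline that count was 1, and without the first such Fast list 2. Apart from the feeding calls by list number given earlier, shares of all genes were not computed for lists left out. For H3K9ac the calls above were 1 without the second Fed list without tetracycline and 2 without the second Fast list with it. With the lists of 1 number alone, members marked at an end throughout numbered 7 to 8 (H3K27ac) and 4 to 7 (H3K9ac), regions held by every Fast but no Fed list 4 to 15 and 1 to 7, and the reverse 2 for H3K27ac and 0 to 4 for H3K9ac.

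With the better-scored 0.5, 4 members were marked throughout for H3K27ac and 1 for H3K9ac, and with equal numbers of peaks 1 for H3K9ac. Shares of all genes marked throughout, or of all regions, were not computed under these settings. Equal numbers also left 2 H3K27ac regions of the former kind, and 1 of the reverse. Under the replicate block, exchanging labels only within a list number, the smallest p is 0.125. With the same direction in all 4 pairs, 3 members (Ddit4, Asns and Eif2ak4) were higher with fasting (15.4% of genes) and 5 lower with tetracycline (10.997%) for H3K27ac. For H3K9ac 1 was higher with fasting (7.96%), 1 (Trib3) lower with fasting (1.33%) and 1 higher with tetracycline (7.71%).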
